A study of Mus musculus with 12 samples.

Results

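The intermediate filament genes of neurons and of neural progenitors were followed through 12 RNA-seq libraries of the mouse ventral spinal cord at stage E12.5. They were taken as a fixed set of 7 genes, *Prph*, *Nefl*, *Nefm*, *Nefh*, *Ina*, *Nes* and *Vim*, matched by NCBI gene identifier, out of 45777 identifiers in the tables. All 7 were present in every library and all 7 passed the filter on low values, a mean of at least 0.5 TPM (a relative transcript abundance corrected for transcript length). The libraries fall into 4 groups of 3: brachial (forelimb) and lumbar (hindlimb) cord, each from *Isl2* +/- embryos (heterozygote, Het) and from *Isl2* -/- embryos (knockout, KO). *Isl2* encodes a LIM-homeodomain transcription factor of postmitotic motor neurons (MNs), and the study asked which genes depend on it at each limb level.

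The heterozygotes are the controls throughout, so every library comes from an embryo that lacks at least 1 working copy of *Isl2*, and no wild-type library was analysed here. The KO allele is a constitutive replacement of exons and acts in every cell of the embryo. The tissue was trimmed around the *Hb9::GFP* reporter, a transgene that labels MNs, so each library is bulk tissue that also holds progenitors, interneurons, vessels and blood. In such tissue, fewer cells of a type and less RNA per cell cannot be told apart.

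Intermediate filaments are rope-like polymers of coiled-coil proteins. In neurons the light, medium and heavy neurofilament subunits (*Nefl*, *Nefm*, *Nefh*) co-assemble along the axon with alpha-internexin (*Ina*) or with peripherin (*Prph*), which is known from neurons that send axons out of the central nervous system, such as MNs and sensory neurons. Dividing neural progenitors and radial glia carry nestin (*Nes*) and vimentin (*Vim*) instead, and lose them as neurons mature. In development *Ina*, *Nefl* and *Nefm* come on early in a neuron's life, and *Nefh* comes on late.

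In the GRCm38 build the 7 genes lie on 6 chromosomes. *Nefl* (identifier 18039, plus strand, chr14:68083863-68089095) and *Nefm* (18040, minus strand, chr14:68119545-68125004) are neighbours with 30.449 kb between them. *Prph* (19132) spans chr15:99053579-99058978 on the plus strand, *Nefh* (380684) chr11:4938754-4948064 on the minus strand, *Ina* (226180) chr19:47014681-47025327 on the plus strand, *Nes* (18008) chr3:87971093-87980451 on the plus strand and *Vim* (22352) chr2:13574311-13582826 on the plus strand. *Nefm* overlaps the antisense noncoding gene *A230070E04Rik* (5.31 to 11.2 TPM over the 12 libraries), *Ina* overlaps *Nt5c2*, and *Nefh* overlaps *Ap1b1* and *Gm35321*. The libraries were strand-specific, but the strand setting used in counting is not given in the sources used here, so reads of such partners may be mixed.

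The promoters of *Prph*, the member with the largest difference between libraries, and of *Ina*, an axonal member that did not pass the test between axial levels, are shown so that the start regions of a member that differed and of one that did not pass can be set side by side. Promoter sequence was taken from the RefSeq table of GRCm38.p6, which held 4 of the 7 genes (*Prph*, *Ina*, *Nes* and *Vim*). The *Prph* line is the 250 bases before its start on the plus strand, chr15:99054924-99055173 (the start used by the promoter table lies inside the span given above, downstream of the outermost start of the gene record), and the *Ina* line the last 100 bases before its start, chr19:47014581-47014680. Capitals mark matches on either strand to TATAAA (the TATA box), to TAAT (the core read by homeodomain proteins) or to CCAAT.
Prph: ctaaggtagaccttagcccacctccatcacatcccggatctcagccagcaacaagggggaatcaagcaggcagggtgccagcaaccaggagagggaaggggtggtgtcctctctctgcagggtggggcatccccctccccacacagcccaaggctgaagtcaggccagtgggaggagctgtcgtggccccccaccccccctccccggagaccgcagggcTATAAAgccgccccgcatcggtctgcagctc
Ina: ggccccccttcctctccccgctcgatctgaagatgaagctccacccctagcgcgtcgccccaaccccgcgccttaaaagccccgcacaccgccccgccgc

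*Prph* held TATAAA 31 bases before its start and no TAAT or CCAAT, and *Ina* held none of the 3 motifs in its 250 bases. *Nes* held none of the 3 motifs either. *Vim* held all of them. Of all 32851 promoter windows of this length, 12.4% held TATAAA, 54.9% TAAT and 33.8% CCAAT, so these matches are a description of the windows and no more. The tables give 1 value per gene, and the *Prph* record has 6 RefSeq transcripts, so use of another start could not be read from them.

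The 12 libraries rested on 4.48 to 6.64 Gb of aligned bases (median 6.13), and 22983 to 24191 genes were above 0 in a library. Log2 values of 2 libraries of a group correlated across genes at 0.967 to 0.983. The tables hold no read counts, so no counting interval is given for single values. The mean per-base coverage of the members was at least 13.3, the lowest being *Nefh*. *Isl2* itself stood at 8.69, 8.34 and 9.64 TPM in the brachial heterozygotes and 6.02, 7.32 and 4.51 TPM in the brachial KOs. At the lumbar level it stood at 10.3, 8.41 and 9.34 TPM in heterozygotes and 7.32, 6.47 and 8.25 TPM in KOs. KO libraries were below heterozygotes at both levels, but *Isl2* reads remained in them, and 1 value per gene cannot separate the replaced exons from those that the allele keeps. Embryo sex, read from *Xist* and *Ddx3y*, was 1 female and 2 male in the brachial heterozygotes, 2 female and 1 male in the lumbar heterozygotes, and 1 female and 2 male in each KO group. The heterozygote libraries of both axial levels therefore cannot all come from the same 3 embryos. Brachial KO replicates 2 and 3 stood apart from the other libraries, replicate 2 by its size factor (1.24, the others 0.901 to 1.08) and replicate 3 by its depth (4.48 Gb), so the brachial KO, axial and interaction values of the members that moved most are also given without both. That leaves 1 brachial KO library, which is then assumed to vary like the other groups (in the brachial KO comparison, like the 3 heterozygotes).

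Before any comparison, the order of abundance was read from the heterozygotes. In the brachial heterozygotes *Nefl* was the most abundant of the 7 at 1397 ± 147 TPM (SD, n = 3), followed by *Vim* at 587 ± 46.1, *Prph* at 309 ± 12.8, *Ina* at 208 ± 16.8, *Nes* at 169 ± 23.5, *Nefm* at 132 ± 12.4 and *Nefh* at 12.2 ± 1.69 TPM. Neighbours in this order did not overlap between libraries except *Nes* and *Nefm*. In the lumbar heterozygotes *Prph* stood in the sixth place instead of the third, at 61.6 ± 16.5 TPM, below *Nefm*, and the libraries of *Ina* and *Nes* overlapped. In the brachial KOs *Ina* (289 ± 63.1 TPM) and *Prph* (261 ± 33.7 TPM) overlapped in the third and the fourth place, and in the lumbar KOs *Nes* (234 ± 26.7 TPM) and *Ina* (209.9 ± 34.5 TPM) did. The 7 genes together summed to 2129 to 2965 TPM in a library. *Nefl* alone made up 40.6% to 52.8% of that sum in all 12 libraries, while the share of *Prph* was 8.71% to 11.8% in the brachial libraries and 1.203% to 3.05% in the lumbar ones.

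**Figure D1:**
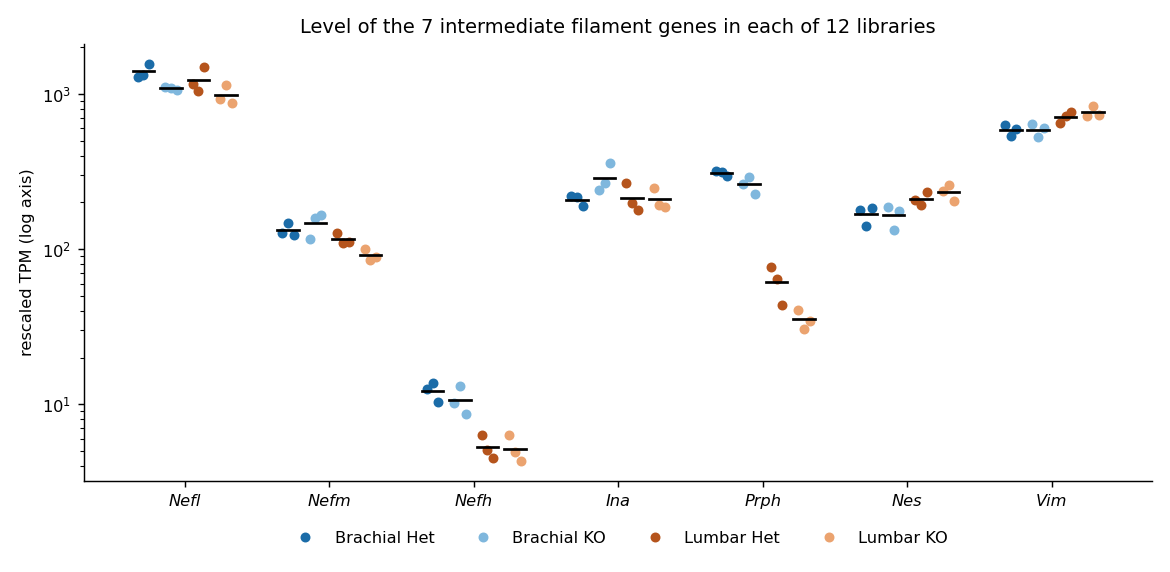
Rescaled TPM of the 7 genes (log axis) in each of the 12 libraries, 3 points per group with the group mean as a black line. The 6 lumbar libraries of *Prph* (30.8 to 76.4 TPM) all sit below the 6 brachial ones (226 to 318 TPM), while those of *Nefl* overlap.

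The first comparison set the lumbar against the brachial cord, averaged over both genotypes. *Prph* was 6.17-fold lower in the lumbar cord and *Nefh*, the late neurofilament subunit, 2.16-fold lower. *Nefm* was lower by a smaller step, 1.35-fold, while the progenitor filaments *Nes* and *Vim* were 1.34-fold and 1.26-fold higher. *Nefl* and *Ina* did not pass the test. With limma and a Benjamini-Hochberg adjusted p under 0.05, 3 of the 7 members were lower and 2 higher, against 9.87% of all 16703 genes tested that were lower and 8.55% that were higher. The median log2 difference of the 7 was −0.21, against 0.01 for all genes tested. The size of the *Prph* difference exceeded that of 99.8% of all genes tested.

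Peripherin was measured at 318, 314 and 294.5 TPM in the 3 brachial heterozygotes and at 264, 293.7 and 226 TPM in the 3 brachial KOs. In the lumbar cord it was measured at 76.4, 64.7 and 43.8 TPM in the heterozygotes and at 40.5, 30.8 and 34.5 TPM in the KOs. The 6 lumbar libraries all lay below the 6 brachial ones, with a wide gap between 76.4 and 226 TPM. The log2 difference was −2.62 (SE 0.12, 95% confidence interval −2.89 to −2.35, adjusted p = 1.66e-07 by limma). An exact permutation test that shuffled the axial levels within each genotype gave p = 0.005, the smallest this design allows. The difference was −2.36 in heterozygotes and −2.89 in KOs, each past the adjusted threshold.

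*Nefh* lay between 8.72 and 13.7 TPM in the 6 brachial libraries (median 11.4) and between 4.29 and 6.32 TPM in the 6 lumbar ones (median 4.98). The axial levels did not overlap, and the log2 difference was −1.11 (SE 0.13, adjusted p = 0.00046 by limma). It was the least abundant of the 7 members at both levels. *Nefm* ran from 116 to 166 TPM in the brachial libraries (median 137) and from 85.2 to 128 TPM in the lumbar libraries (median 105), so the levels overlapped. Its log2 difference was −0.43 (SE 0.09, adjusted p = 0.00736 by limma). It passed in the KOs, at −0.68 (adjusted p = 0.0114, and at −0.36 with adjusted p = 0.258 without Brachial KO replicates 2 and 3), and not in the heterozygotes, at −0.18 (adjusted p = 0.533), and the test of that difference is the interaction given further on.

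*Nefl* had a brachial median of 1202 TPM (1058 to 1565) and a lumbar median of 1099 TPM (872 to 1483). These ranges overlapped for most of their length, and the log2 difference of −0.17 had a 95% confidence interval of −0.38 to 0.04 (adjusted p = 0.236 by limma). With TPM as deposited and with quantile normalization *Nefl* did pass, at −0.31 and −0.29 (adjusted p = 0.0351 and 0.018). The median of all genes shifted to −0.13 with TPM as deposited and stood at 0.01 with quantile normalization. *Ina* had medians of 229.8 TPM (189 to 361) in the brachial and 195 TPM (179.7 to 267) in the lumbar libraries, with a log2 difference of −0.21 (95% confidence interval −0.48 to 0.06, adjusted p = 0.26 by limma). Both intervals lay above those of *Prph* and of *Nefh* (−1.40 to −0.82).

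*Nes* was measured at 134 to 186 TPM in the brachial cord (median 178) and at 194 to 259 TPM in the lumbar cord (median 219.9). The axial levels did not overlap, with a log2 difference of 0.42 (SE 0.10, adjusted p = 0.0138 by limma). *Vim* moved with it, from 526 to 642 TPM in the brachial libraries (median 599.5) to 653 to 839 TPM in the lumbar libraries (median 731), again without overlap. Its log2 difference was 0.33 (SE 0.07, adjusted p = 0.00792 by limma).

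Taken within each genotype, 2 members passed in the heterozygotes (*Prph* and *Nefh*, with 1.84% of all genes called) and 5 in the KOs (*Prph*, *Nefh*, *Nefm*, *Nes* and *Vim*, with 12.2% of all genes called). The count in the KOs was 1 (*Prph*) without Brachial KO replicate 2 or without Brachial KO replicates 2 and 3, 2 (*Prph* and *Nefh*) without Lumbar KO replicate 2, and 3 (*Prph*, *Nefh* and *Nefm*) without Lumbar KO replicate 3, with TPM as deposited, without a variance trend, with a replicate block or without a filter. The KO count was 4 with quantile normalization (*Nefl* gained, *Nes* and *Vim* lost). It was also 4 without Brachial KO replicate 3 (*Vim* lost) and without Brachial Het replicate 1 or Lumbar KO replicate 1 (*Nes* lost). In the heterozygotes *Nefh* was lost without Brachial Het replicate 2 (adjusted p = 0.0641 by limma). Without Brachial KO replicates 2 and 3, the average over genotypes kept 2 of the 5 calls, *Prph* (log2 difference −2.64, adjusted p = 1.94e-05) and *Nefh* (−1.09, adjusted p = 0.00393). *Nefm* then stood at −0.27 (adjusted p = 0.0629), *Nes* at 0.33 (adjusted p = 0.0809) and *Vim* at 0.27 (adjusted p = 0.067), with their directions as before.

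**Figure D2:**
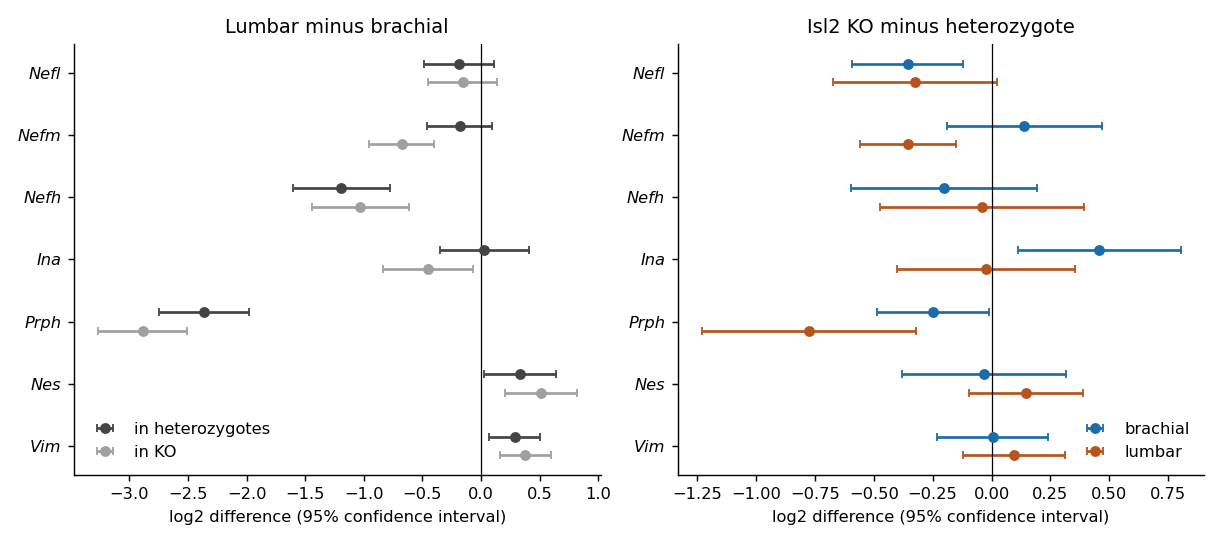
Log2 differences of the 7 genes with 95% confidence intervals from limma, lumbar minus brachial in each genotype (left) and *Isl2* KO minus heterozygote at each axial level (right). The lumbar deficit of *Prph* (−2.36 in heterozygotes, −2.89 in KOs) is far larger than any KO difference of the 7 genes.

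Markers of the cells that express these filaments were read beside these values, and the single markers named here were chosen after their values were seen. The axial levels overlapped for some of the 12 MN markers listed. *Mnx1* ranged from 41.0 to 49.4 TPM in the brachial and 37.6 to 66.9 TPM in the lumbar libraries, *Slc18a3* from 19.6 to 25.3 and 12.03 to 28.4 TPM, and *Isl1* from 47.1 to 63.2 and 45.2 to 69.3 TPM. *Slc5a7*, the choline transporter of cholinergic neurons, was lower in the lumbar cord, with 26.1 to 32.4 TPM in the brachial and 10.4 to 16.5 TPM in the lumbar libraries (log2 difference −1.10, adjusted p = 7.88e-06 by limma). Of the 12 MN markers listed, 3 were lower in the lumbar cord and none was higher at an adjusted p under 0.05 by limma, beside 9.87% and 8.55% of all genes tested. In heterozygotes 9 of the 12 were on the higher side (median log2 difference 0.13, 1 called lower). In KOs 6 of the 12 were on the higher side (median −0.08, 3 called lower). The summed level of the 12 was 392 to 461 TPM (brachial) and 298 to 471 TPM (lumbar). Per TPM of *Mnx1* there were 6.59 ± 1.10 TPM of *Prph* at the brachial level and 0.946 ± 0.365 TPM at the lumbar one (SD, n = 6 each), a ratio of 6.97. The same ratio was 6.32 per TPM of *Isl1*, 5.47 per TPM of *Slc18a3* and 2.81 per TPM of *Slc5a7*.

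Sensory neurons of the dorsal root ganglia also make peripherin, and a list of 12 of their markers was read in the same libraries. The sum of 4 of them picked after their values were seen, *Avil*, *P2rx3*, *Scn10a* and *Trpv1*, was 1.03 to 1.67 TPM in the brachial and 0.770 to 1.70 TPM in the lumbar libraries, and *Scn10a* was at 0 in all 12. The sum over all 11 sensory markers in the tables was 38.1 to 58.7 TPM in the brachial and 26.7 to 49.6 TPM in the lumbar libraries. Its mean was 50.0 TPM in the brachial and 38.2 TPM in the lumbar libraries, and most of it came from *Pou4f1* (13.2 and 13.3 TPM) and *Tac1* (32.5 and 20.6 TPM). Of the 7 that passed the filter, 1 (*Six4*) was higher in the lumbar cord and none was lower at an adjusted p under 0.05 by limma, with *Tac1* at a log2 difference of −0.74 (adjusted p = 0.0588 by limma). The part of sensory markers in the *Prph* difference was not tested.

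Progenitor markers were mixed between the axial levels. *Sox2* ranged from 60.1 to 90.4 TPM in the brachial and 84.4 to 107 TPM in the lumbar libraries, *Hes5* from 61.8 to 88.7 and 87.6 to 128 TPM, and the cell-cycle gene *Top2a* from 45.8 to 77.4 and 85.4 to 164 TPM. Of the 12 progenitor and radial glia markers, 4 were higher and 3 lower in the lumbar cord (limma, adjusted p under 0.05), beside 8.55% and 9.87% of all genes tested. The lower ones included *Fabp7* and *Slc1a3*, so the summed level of the list, which *Fabp7* dominates, was 1861 to 2697 TPM (brachial, mean 2364) and 1714 to 2178 TPM (lumbar, mean 1990). Averaged over genotypes, all 8 pan-neuronal markers were on the lower side in the lumbar cord, 3 of them past the adjusted threshold. In heterozygotes 5 of the 8 were on the lower side (1 called, median −0.05). In KOs all 8 were (2 called, median −0.43, and −0.26 without Brachial KO replicates 2 and 3). The sum of the 8 was 1281 to 1371 TPM (brachial) and 1077 to 1219 TPM (lumbar). Markers of other cells in the trimmed tissue were also lower in the lumbar cord, namely 4 of 6 endothelial, 4 of 6 microglial, 3 of 5 mesenchymal and 1 of 4 Schwann cell and crest markers tested, while none of 6 red blood cell or 2 skeletal muscle markers tested passed the adjusted threshold (limma). No marker of these other lists was higher at the adjusted threshold by limma. All these counts stand beside 9.87% of all genes tested that were lower and 8.55% that were higher. The part of these shifts in the differences of *Prph*, *Nefh*, *Nes* and *Vim* was not tested.

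**Figure D3:**
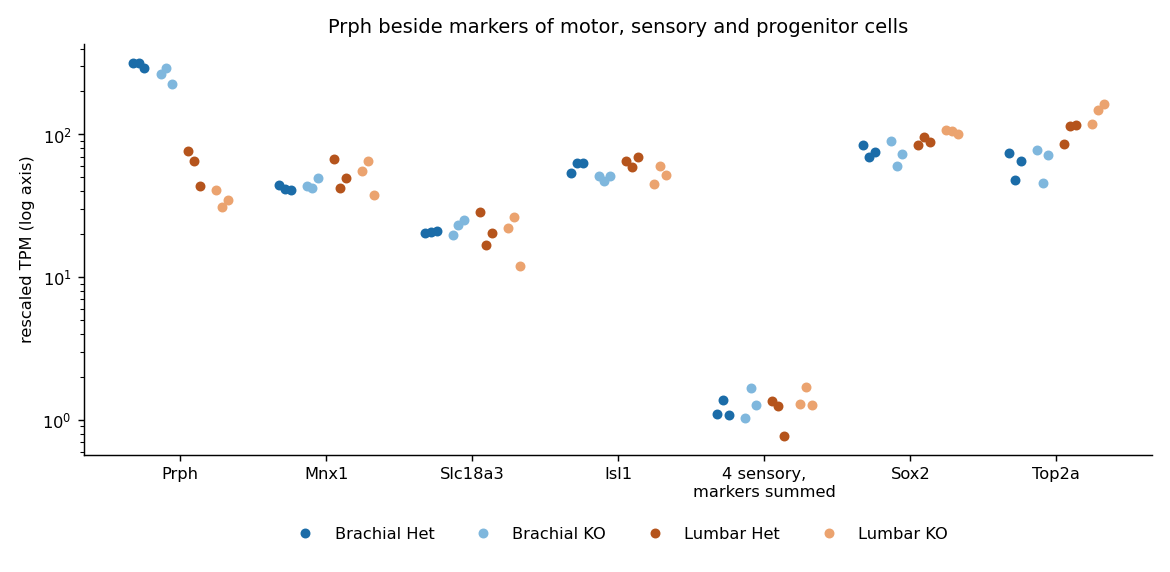
Rescaled TPM (log axis) of *Prph* in each of the 12 libraries beside 3 MN markers, the sum of 4 of the 12 sensory markers (picked after their values were seen), and 2 progenitor markers, 3 points per group. The progenitor markers *Sox2* and *Top2a* were also picked after their values were seen. Of the 12 on their list 4 were higher and 3 lower in the lumbar cord. The sum of that list had means of 2364 (brachial) and 1990 TPM (lumbar). *Prph* separates the axial levels (226 to 318 against 30.8 to 76.4 TPM), the 3 MN markers shown, picked after their values were seen, overlap between them (3 others of the 12 were lower in the lumbar cord), and the sum of these 4 sensory markers stays between 0.770 and 1.70 TPM, while that of all 11 in the tables had means of 50.0 (brachial) and 38.2 TPM (lumbar).

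The second comparison set *Isl2* KO against heterozygote at the lumbar level, where the study looked for genes that need Isl2. *Prph* was 1.71-fold lower in KO and *Nefm* 1.28-fold lower, and for both all 3 KO libraries lay below all 3 heterozygotes. No member passed an adjusted p of 0.05, and 0 (0%) of the 16619 genes tested did, with 810 at an unadjusted p under 0.05. Against the threshold of the study, a log2 fold change beyond 0.5 with an unadjusted p under 0.05, *Prph* was the only member on the lower side and no member was on the higher side. Of all genes tested 0.8% were past that threshold on the lower side and 0.993% on the higher side. Groups without overlap were seen for 2 of the 7 members with KO below heterozygote and for none with KO above it, against 5.46% and 4.49% of all genes. The median log2 difference was −0.04 over the 7 members and −0.01 over all genes.

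*Prph* went from a mean of 61.6 ± 16.5 TPM in lumbar heterozygotes to 35.3 ± 4.92 TPM in lumbar KOs (SD, n = 3 each), 57.2% of the heterozygote mean. The log2 difference was −0.78 (SE 0.20, 95% confidence interval −1.23 to −0.32), with an unadjusted p of 0.0044 and an adjusted p of 0.949 by limma. The highest KO library (40.5 TPM) and the lowest heterozygote (43.8 TPM) were close. Leaving out each of the 6 libraries in turn gave values from −1.003, without Lumbar Het replicate 3, to −0.60, without Lumbar Het replicate 1. With embryo sex as a term it was −0.85. The study had already picked *Prph* as lower in these lumbar KO libraries, so this value is not independent evidence of its direction. By in situ hybridization the study also reported lower *Prph* in the motor pool of the gluteus muscle in KO cords. Bulk libraries cannot show single motor pools. The exact permutation test of 3 against 3 libraries gave p = 0.1, the smallest it allows.

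*Nefm* was at 128, 110 and 112 TPM in the lumbar heterozygotes and at 99.8, 85.2 and 88.6 TPM in the lumbar KOs. The log2 difference was −0.35 (SE 0.09, unadjusted p = 0.0040, adjusted p = 0.949 by limma), under the fold threshold of the study. *Nefl* was at 1169, 1051 and 1483 TPM in heterozygotes and 926, 1147 and 872 TPM in KOs, so the genotypes overlapped, with a log2 difference of −0.33 (95% confidence interval −0.67 to 0.02). *Nefh* (−0.04) and *Ina* (−0.02) lay near 0, and *Nes* (0.15) and *Vim* (0.10) a little above it, all with overlap. The summed level of the 12 MN markers was 362 to 471 TPM in lumbar heterozygotes and 298 to 432 TPM in lumbar KOs, and 11 of the 12 were on the lower side in KO, none past the adjusted threshold (limma). *Prph* per TPM of *Mnx1* was 1.19 ± 0.331 in lumbar heterozygotes and 0.705 ± 0.223 in lumbar KOs (SD, n = 3), and these overlapped. Of the 6 red blood cell markers all 6 were on the higher side in lumbar KO (median log2 difference 0.58, 1 past the threshold of the study), and their sum was 1542 to 2677 TPM in heterozygotes and 2087 to 3530 TPM in KOs. Of the 12 progenitor markers 9 were on the higher side (median 0.23, sums of 1806 to 2178 and 1714 to 2165 TPM). None of either list passed the adjusted threshold (limma). The part of the MN, red blood cell and progenitor markers in the *Prph* and *Nefm* differences was not tested.

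At the brachial level *Prph* and *Nefl* were 1.19-fold and 1.28-fold lower in KO, and *Ina* was 1.37-fold higher. These were the 3 members at an unadjusted p under 0.05. No member was past the threshold of the study, against 0.823% of the 16775 genes on the lower side and 2.29% on the higher side. No member passed an adjusted p of 0.05 by limma, which 1 gene (0.00596%) did, while 2353 genes were at an unadjusted p under 0.05. *Prph* and *Nefl* had all KO libraries below all heterozygotes and *Ina* all above, against 10.2% and 10% of all genes. The median log2 difference of the 7 was −0.03, and that of all genes 0.00.

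*Nefl* was at 1291, 1335 and 1565 TPM in the brachial heterozygotes and at 1113, 1092 and 1058 TPM in the brachial KOs. The KO libraries were tight and clear of the heterozygotes, with a log2 difference of −0.36 (SE 0.10, unadjusted p = 0.0083, adjusted p = 0.355 by limma). For *Prph* the lowest heterozygote (294.5 TPM) and the highest KO (293.7 TPM) nearly touched, and the log2 difference was −0.25 (95% confidence interval −0.49 to −0.01). *Ina* was at 219, 216 and 189 TPM in heterozygotes and at 241, 266 and 361 TPM in KOs, with a log2 difference of 0.46 (SE 0.15, unadjusted p = 0.016, adjusted p = 0.355 by limma). The high value was Brachial KO replicate 3. Without Brachial KO replicates 2 and 3 the log2 differences were 0.22 for *Ina*, −0.23 for *Prph* and −0.32 for *Nefl*, none at an unadjusted p under 0.05 with the 1 KO library left, and that of *Nefm* turned from 0.14 to −0.18. With all 6 libraries, 6 of 8 pan-neuronal markers (median 0.33) and 6 of 6 red blood cell markers (median 0.44) were on the higher side in brachial KO, none past the adjusted threshold (limma). Without Brachial KO replicates 2 and 3 these medians were 0.12 and −0.07. The sums were 1281 to 1321 TPM in heterozygotes and 1317 to 1371 TPM in KOs for the pan-neuronal list, and 1611 to 2910 and 2177 to 4957 TPM for the red blood cell list. The part of these markers in the *Ina* difference was not tested.

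Brachial values moved with the scaling of the libraries. With TPM as deposited the median of all genes shifted to 0.16 on the log2 scale in this comparison. On that scale *Prph* stood at −0.08, *Nefl* at −0.19 and *Ina* at 0.62, the last past the threshold of the study. Relative to the shifted median, *Prph* and *Nefl* were close to their values after rescaling. *Nes* (−0.03) and *Vim* (0.00) stayed near 0 after rescaling, and *Nes* turned to 0.13 with TPM as deposited and to 0.08 with quantile normalization.

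**Figure D4:**
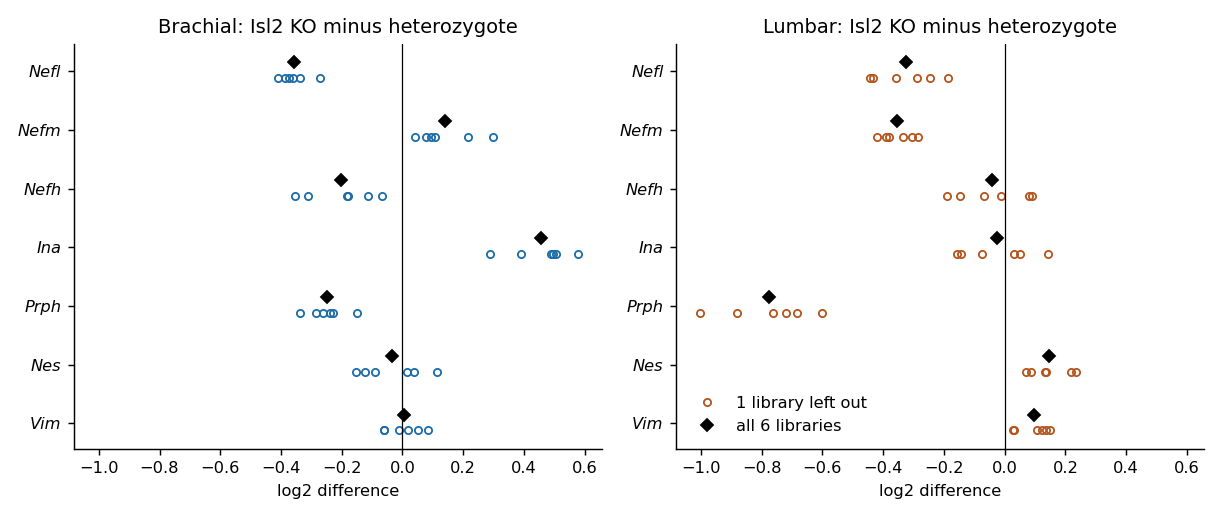
Log2 difference of *Isl2* KO minus heterozygote for the 7 genes at the brachial (left) and lumbar (right) level, from all 6 libraries (black diamonds) and with each library left out in turn (open circles). *Prph* at the lumbar level stays between −1.003 and −0.60, while *Nes* and *Vim* at the brachial level and *Nefh* and *Ina* at the lumbar level fall on both sides of 0.

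Averaged over both axial levels, *Prph* was at a log2 difference of −0.51 in KO (SE 0.12, unadjusted p = 0.0014, adjusted p = 0.296 by limma). It was the only member past the threshold of the study, against 0.599% of the 16703 genes on the lower side, and it came inside the fold limit at −0.46 without Brachial KO replicate 3, at −0.44 with quantile normalization and at −0.43 with TPM as deposited, where the median of all genes shifted to 0.08. *Nefl* followed at −0.34 (SE 0.10, unadjusted p = 0.0041, adjusted p = 0.296 by limma). *Isl2* was at −0.47 in the same fit. Brachial and lumbar libraries may share embryos, and where they do these p-values are too small. No member passed an adjusted p of 0.05, which 4 genes (0.0239%) did. All 6 red blood cell markers were on the higher side in this average, none past the adjusted threshold (limma). Their median log2 difference was 0.49, and 0.18 without Brachial KO replicates 2 and 3. Their part in the differences of the members was not tested.

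Whether the KO difference itself differed between the axial levels was tested as an interaction in all 12 libraries. No member passed an adjusted p of 0.05, and neither did any other gene (0%), with 741 genes at an unadjusted p under 0.05. *Nefm* had the smallest p of the 7, with a difference of −0.49 (SE 0.18, unadjusted p = 0.018, adjusted p = 0.805 by limma), from 0.14 at the brachial to −0.35 at the lumbar level. *Prph* came next at −0.53 (95% confidence interval −1.06 to 0.01, unadjusted p = 0.055), so a difference between its KO effects at the 2 axial levels was not shown with 3 libraries a group. *Ina* was at −0.48 (95% confidence interval −1.02 to 0.06) and *Nefl* at 0.03 (−0.39 to 0.45). Without Brachial KO replicates 2 and 3 the differences were −0.17 for *Nefm*, −0.24 for *Ina* and −0.55 for *Prph*. Other lists lay on the same side in this comparison, with 12 of 12 MN markers (median −0.19), 7 of 8 pan-neuronal markers (median −0.35) and 27 of 37 filament linkers and axonal cytoskeleton genes (median −0.26) below 0, none past the adjusted threshold (limma), beside a median of −0.01 for all genes. Their part in the differences of the members was not tested.

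Ratios within a library do not depend on the size factors. For every 100 TPM of *Nefl* there were 22.3 ± 3.10 TPM of *Prph* in brachial heterozygotes, 24.0 ± 2.75 in brachial KOs, 5.21 ± 1.97 in lumbar heterozygotes and 3.67 ± 0.880 in lumbar KOs (SD, n = 3 each). The axial levels were apart (18.8 to 26.9 against 2.68 to 6.53), and the genotypes overlapped at both of them. *Nefm* held close to 10 TPM per 100 of *Nefl* in heterozygotes, 9.57 ± 1.54 brachial and 9.65 ± 1.84 lumbar, and 13.6 ± 2.76 in brachial KOs, where it was 10.5 in Brachial KO replicate 1. *Nefh* was at 0.934 ± 0.181 per 100 *Nefl* in the brachial and 0.488 ± 0.124 in the lumbar libraries (n = 6 each), overlapping only at their edges (0.664 the lowest brachial, 0.681 the highest lumbar). *Ina* per 100 *Nefl* was 15.1 ± 2.64 in brachial heterozygotes and 26.7 ± 6.54 in brachial KOs (21.6 in Brachial KO replicate 1), without overlap, and 17.9 ± 5.41 and 21.8 ± 5.10 in the lumbar groups, with overlap. *Nes* kept a near constant ratio to *Vim*, between 25.4 and 32.9 TPM per 100 in all 12 libraries.

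**Figure D5:**
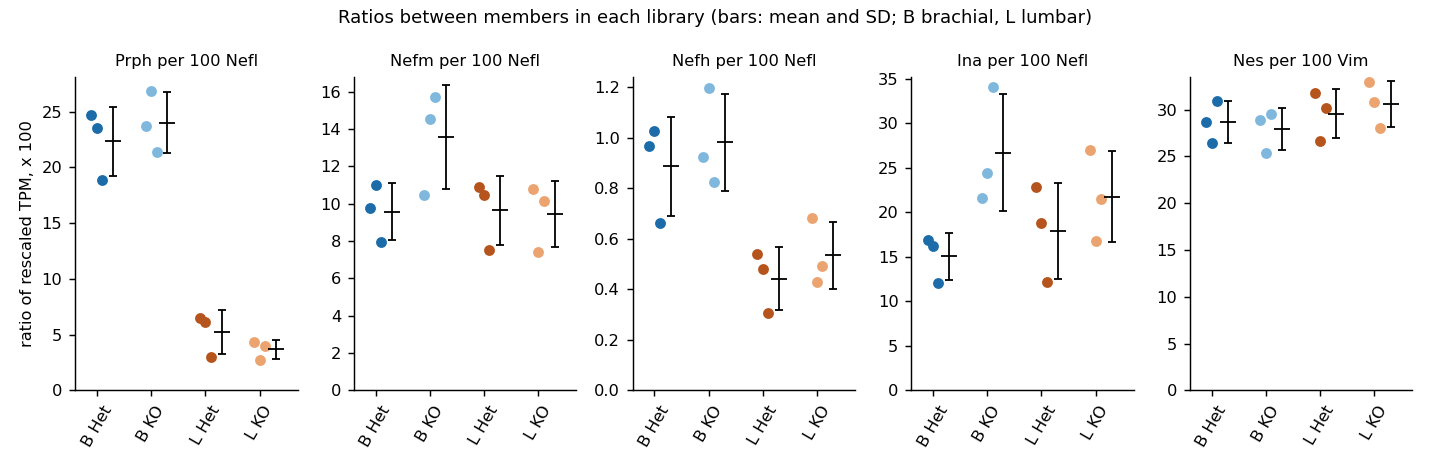
Ratios of rescaled TPM within each library, as TPM of 1 member per 100 TPM of *Nefl* or of *Vim*, with group mean and SD (n = 3). *Prph* per 100 *Nefl* is 18.8 to 26.9 in the brachial and 2.68 to 6.53 in the lumbar libraries, while *Nes* per 100 *Vim* is 25.4 to 32.9 throughout.

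The other intermediate filament genes were a list of 22, of which 9 passed the filter on low values. Glial *Gfap* was at 0 in all lumbar libraries and at most 0.0332 TPM in a brachial one, and muscle *Des* at most 0.322 TPM. Between axial levels 3 of the 9 were lower and 1 higher in the lumbar cord (limma, adjusted p under 0.05), beside 9.87% and 8.55% of all genes tested. The A-type lamin gene *Lmna*, whose product lines the nucleus of differentiated cells, went from 15.1 TPM in the brachial to 10.3 TPM in the lumbar libraries (log2 difference −0.54, adjusted p = 0.00229 by limma). *Lmnb1*, a B-type lamin gene, went the other way, from 98.4 to 121 TPM (0.30, adjusted p = 0.0107 by limma). Synemin (*Synm*, −0.36, adjusted p = 0.0378 by limma) and *Krt222* (−0.55, adjusted p = 0.0313) were the other lower ones, at 3.89 against 3.00 TPM and 2.29 against 1.51 TPM. In the KO comparisons none of the 9 passed either threshold at a level or on average.

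Genes that link filaments or build the rest of the axonal cytoskeleton formed a list of 37, all of which were tested. In the lumbar cord 3 of them were lower and none higher (limma, adjusted p under 0.05), beside 9.87% and 8.55% of all genes tested, with a median log2 difference of −0.08. These were the microtubule protein tau (*Mapt*, −0.37, adjusted p = 0.00888 by limma), the axonal motor *Kif1a* (−0.40, adjusted p = 0.0238) and the tubulin *Tubb2a* (−0.22, adjusted p = 0.0281). The largest of them was thus −0.40, beside −2.62 for *Prph*. Within heterozygotes none of the 37 was called and 18 were on the lower side (median 0.008). Within KOs 3 were called lower and 31 were on the lower side (median −0.22, and −0.09 without Brachial KO replicates 2 and 3). In the brachial KO comparison 4 were past the threshold of the study on the higher side and none on the lower side: *Map1b*, a microtubule protein of growing axons (0.52), the ankyrins *Ank2* (0.52) and *Ank3* (0.90), and *Mapre3* (0.53). Of all genes 2.29% were past it on the higher side and 0.823% on the lower side. All had an adjusted p of 0.355 or more by limma. Their 2 highest brachial values lay in Brachial KO replicates 2 and 3, and *Ina* was high in the same libraries. Without these 2 libraries none of the 37 was past the threshold of the study, and the 4 stood at 0.16, 0.11, −0.01 and 0.21 in the order given. In the lumbar KO comparison none passed either threshold and 26 of the 37 were on the lower side, with a median of −0.06.

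Across the 12 libraries some members followed the axial level of *Prph*, some opposed it, and *Nefl* and *Ina* did neither clearly, as a description of 12 points that share 2 axial levels. Log2 values of *Prph* correlated with *Nefh* at 0.95, *Nefm* at 0.81, *Nefl* at 0.42, *Ina* at 0.38, *Nes* at −0.83 and *Vim* at −0.90 (Pearson's r), and *Nes* with *Vim* at 0.94. After the mean of each group was removed, *Prph* and *Nefh* were still at 0.77, *Nes* and *Vim* at 0.81 and *Nefm* and *Ina* at 0.76. *Prph* and *Nefm* fell from 0.81 to 0.27, and *Prph* and *Nefl* went from 0.42 to −0.65. *Nefl*, the most abundant member, stood at −0.27 with *Nefm*, −0.28 with *Nefh* and −0.41 with *Ina* on that scale, so its deviations did not follow those of the other axonal members.

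The genes most like each member over the 12 libraries were listed by the same correlation, 3 for each. For *Prph* these were *Ppp1r14c* (r = 0.99), *Dync1i1*, a neuronal dynein intermediate chain (0.98), and *Lypd1* (0.98). *Lypd1* had 31.8 TPM in brachial heterozygotes and 10.2 TPM in lumbar heterozygotes, and *Dync1i1* 10.0 and 3.92 TPM. For *Nefh* they were *Ttyh2*, the synaptic vesicle fusion gene *Snap25* and *Gng4* (0.98 each). For *Nefm* they were *Gpr139* (0.97), *Atrnl1* (0.96) and the semaphorin receptor *Nrp2* (0.95), and for *Nefl* *Borcs6* (0.96), *Mgst3* (0.96) and *Gm5499*, annotated as a pseudogene (0.95). *Ina* ran with the neuronal adhesion gene *Ncam1*, the neuronal RNA-binding gene *Elavl3* and *Ptprs* (0.98 each), whose brachial KO means were also their highest. *Nes* was most like *Dpysl4* (0.96), *Angptl2* (0.96) and *Tax1bp3* (0.95), and *Vim* most like *Golm1*, *Sinhcaf* and *Chtf8* (0.98 each), all with higher means in the lumbar groups.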

How the data were processed

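Ventral spinal cord of E12.5 mouse embryos was profiled by ribosome-depleted, stranded total RNA-seq in 12 libraries, 3 in each of 4 groups. Per the submitters' processing notes, FastQC (0.11.7), Trimmomatic (0.38), HISAT2 (2.1.0), Bowtie2 (2.3.4.1), StringTie (2.1.3b) and mm10 were used. The authors deposited 1 StringTie table per library with TPM (length-corrected, with the same sum in each library), FPKM and mean per-base coverage for 45777 gene identifiers, 45679 of which matched a RefSeq symbol. The deposited FPKM and coverage were used only to estimate the aligned bases, and coverage also replaced TPM in an alternative. The authors' DESeq2 test on counts could not be repeated, since the tables used here hold no counts. Lines of the 6 identifiers listed more than once were summed.

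TPM values were divided by a size factor per library (the median of its ratios to the geometric mean), because 5 small RNAs took up 23.7% to 38.2% of the TPM of a library. Genes with a mean of at least 0.5 TPM in the libraries of a comparison were tested on log2(TPM + 0.1) with limma (3.58.1, R 4.3.3) and a mean-variance trend, with Benjamini-Hochberg adjustment over all genes tested. Log2 differences on this scale understate the change of low genes. KO and heterozygote were compared within each axial level from its 6 libraries, and the other comparisons used all 12. Exact permutation tests were two-sided. Python (3.11.15), pandas (2.3.3), numpy (2.4.6), scipy (1.17.1) and matplotlib (3.10.9) did the rest, and the fit was tested on simulated data. Per the study's methods the cords came from 3 heterozygote and 3 homozygote animals, so brachial and lumbar libraries may share embryos, and the comparisons over all 12 libraries do not rest on 12 independent animals. The labels do not say which libraries share an embryo, and p-values measure the spread between these libraries.

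Named were *Isl2*, the 7 members, the 3 genes most correlated with each member, and, from the lists of other filament genes and of linkers and axonal cytoskeleton, those past the adjusted or the study threshold, up to 4 a direction. Marker lists were summarised by counts and sums, and the exceptions are named as such. The members and lists were chosen with earlier results of these data known. Alternatives changed the pseudocount, filter, scaling, unit, variance trend, libraries and replicate block, and embryo sex and Brachial KO replicates 2 and 3 were added after seeing the data. Some items of the sensory marker list are not reported here by name.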

Additional observations from a re-analysis of the deposited data

How the results depend on the processing

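The members' directions and calls were computed again under other settings. Of 1388 values, 1242 kept their direction and side of the threshold (for counts, stayed within 1.5 times), 30 lost the threshold, 3 gained it, 31 turned sign and 82 moved further. The causes were not tested except where a setting's own construction shows them.

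With TPM as deposited the median of all genes moved to 0.16 (brachial KO), 0.083 (KO mean), −0.17 (difference of KO effects), −0.13 (axial difference) and −0.21 (axial difference in KOs), so turns of sign and lost or gained calls under it include this common shift. There, brachial KO called 1248 genes past the study threshold (522 in the report's setting), 0 genes at the adjusted p (1 in the report's setting) and 1 member past the study threshold (*Ina*, also 1 with quantile normalization), and *Nes* turned to 0.13 (0.077 with quantile normalization). The KO mean had 1 gene at the adjusted p (4 in the report's setting) and 0 members past the study threshold under both scalings, where *Prph* had been the 1. The difference of KO effects turned to −0.13 for *Nefl* and −0.067 for *Vim* as deposited, and to −0.21 and −0.11 with quantile normalization. The axial difference in heterozygotes had 117 genes as deposited (308 in the report's setting), and *Ina* turned to −0.025 (−0.0022 with quantile normalization). In KOs 3 members passed as deposited (5 in the report's setting).

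Without a filter on low values there were 801 (brachial KO), 619 (lumbar KO, 298 in the report's setting) and 639 genes (KO mean, 307 in the report's setting) past the study threshold, 1 gene for the difference of KO effects (0 in the report's setting), and 1198 genes (2032 in the report's setting) and 3 members for the axial difference in KOs. A mean TPM of at least 1 gave 200 genes for the KO mean. A pseudocount of 1 gave 179 (lumbar KO) and 118 genes (KO mean). Without a variance trend, brachial KO had 0 genes and the axial difference in KOs 3 members. All 12 libraries in 1 fit gave 2 genes at the adjusted p at each axial level. With embryo sex as a term, brachial KO had 0 genes.

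Without Brachial KO replicates 2 and 3, which leaves 1 brachial KO library that is assumed to vary like the other groups (in the brachial KO comparison, like the 3 heterozygotes), brachial KO had 8 genes at the adjusted p and 306 past the study threshold, with *Nefm* at −0.18 and *Nes* at 0.15, and the KO mean had 204. The difference of KO effects had 2 genes, with *Nefl* at −0.0023, *Nes* at −0.00088 and *Vim* at −0.036. The axial difference had 1501 genes (3076 in the report's setting) and 2 members, and in KOs 83 genes and 1 member (*Prph*).

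The replicate numbers were not taken to pair the libraries, since not every pair's deviations correlated above 0.1. Same-numbered brachial and lumbar libraries were at −0.21 to 0.34, with a different embryo sex in 3 of 6 pairs. Same-numbered Het and KO libraries were at 0.0096 to 0.23 in brachial cord (same sex in 3 of 3 pairs) and −0.21 to 0.14 in lumbar cord (0 of 3). With a replicate block, brachial KO had 0 genes at the adjusted p, the difference of KO effects 1, the axial difference in heterozygotes 124, and in KOs 890 genes and 3 members.

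With each library left out in turn, brachial KO had 0 to 8 genes at the adjusted p (8 without Brachial KO replicate 1), 271 (without Brachial Het replicate 3) to 1412 (without Brachial KO replicate 1) genes and 0 to 1 members past the study threshold, with *Nes* from −0.15 to 0.11 and *Vim* from −0.060 to 0.084. Lumbar KO had 0 to 4 genes at the adjusted p (4 without Lumbar KO replicate 3) and 294 to 462 past the study threshold, with *Nefh* from −0.19 to 0.091 and *Ina* from −0.16 to 0.14. The KO mean had 2 to 8 genes at the adjusted p, 203 to 526 past the study threshold, 0 (without Brachial KO replicate 3) to 1 members past it, and *Nes* from −0.0032 to 0.13. The difference of KO effects had 0 to 1 genes, with *Nefl* from −0.086 to 0.17. The axial difference had 1905 (without Brachial Het replicate 2) to 3458 genes. In heterozygotes it had 82 (without Brachial Het replicate 2) to 454 (without Brachial KO replicate 3) genes and 1 to 2 members, *Nefh* being lost without Brachial Het replicate 2, with *Ina* from −0.14 to 0.15. In KOs it had 283 (without Brachial KO replicate 2) to 2894 (without Brachial KO replicate 1) genes and 1 (without Brachial KO replicate 2) to 5 members.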
